A study of Homo sapiens with 6 samples.

Results

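The genes examined here carry out major histocompatibility complex (MHC) class I antigen presentation, the process by which a cell shows peptides from its own proteins to cytotoxic T cells. The set was chosen by name and comprised 8 genes: the heavy chains HLA-B, HLA-C and HLA-E, the light chain B2M, the peptide transporter subunit TAP1, and the endoplasmic reticulum (ER) chaperones CALR, CANX and PDIA3. Rows of the count table were taken by gene name and summed per gene identifier. This gave values for 4 of the 8 genes, B2M, CALR, CANX and PDIA3, with 20 transcript models and 6053 counts, out of 10072 genes and 21472 models in the whole table. HLA-B, HLA-C, HLA-E and TAP1 were not analysed here, so every statement below is about the light chain and the chaperones.

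The libraries came from Calu-6, an established human lung carcinoma line, and poly(A) RNA was read as PCR-amplified cDNA on a nanopore sequencer. Cells were transfected at 10 nM for 48 h with a non-targeting siRNA (siControl) or with an siRNA against the TERT Delta 2-4 splice variant (siDelta2-4), in which exon 1 of the telomerase gene joins exon 5, and each group held 3 libraries. The labels gave the genotype as WT for all samples, whereas the column names carried the word Empty, which the study uses for a selected population with an empty Flag-V5 vector. For this sequencing the study's methods describe stable Calu-6 lines with the empty or the Delta 2-4 vector, which matches the column names. What the WT label referred to was not tested, and the background was the same in both groups. The study calls the libraries of a group biological replicates, and neither it nor the labels say whether they came from separate cultures, so p-values measure the spread between these libraries. TERT itself was not analysed here, so the knockdown was not checked in these counts.

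Totals ranged from 1037468 to 1106413 counts for siControl and from 1070009 to 1309241 for siDelta2-4, and each library is named below as the high-total, middle-total or low-total library of its group. Of the epithelial marker list, 5 of 6 genes had counts: KRT18 had 1124, KRT8 824, KRT7 41, EPCAM 13 and KRT19 1. Of the 4 mesenchymal markers, VIM had 987 counts and FN1 had 2. These marker genes were picked out after their values were seen. The immune marker list held 22 counts in all, between 3 and 6 in each library, and the endothelial list held none. Leaving out the low-total siControl library raised the number of genes called different between the groups from 504 to 1041, and a result below is also given without it where that changed a call.

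In a normal cell, the heavy chain is folded in the ER with the help of calnexin, the membrane-bound lectin encoded by CANX. It then pairs with beta-2-microglobulin, the product of B2M, and enters the peptide-loading complex. Calreticulin, encoded by CALR, is the soluble lectin of that complex, and ERp57, encoded by PDIA3, is its thiol oxidoreductase. The peptides come from the proteasome and are pumped into the ER by the TAP transporter. B2M and the heavy chains are known targets of interferon and NF-kappa B signalling, while CALR, CANX and PDIA3 serve glycoprotein folding in general.

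The promoter sequences of B2M and CALR are shown because they hold motifs of the signals these genes are known for, interferon for the light chain and ER stress for the chaperone. HSPA5 is set beside them because it was called below. The promoters of the other ER folding genes named below were not searched. RefSeq windows on GRCh38.p14 were read over the 250 bases before the annotated start, on the gene's strand. B2M, CALR and CANX matched by symbol. Both strands were searched for 4 motifs, where N is any base: GAAANNGAAA for the interferon response element, GGGANNTTCC for the kappa B site, CCAAT for the CCAAT box, and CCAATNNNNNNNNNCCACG for the ER stress response element, which contains a CCAAT box.

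In the B2M window, chr15:44711267-44711516 on the plus strand, capitals mark 2 overlapping interferon elements, then 1 kappa B site and 1 CCAAT box read on the reverse strand.
B2M promoter: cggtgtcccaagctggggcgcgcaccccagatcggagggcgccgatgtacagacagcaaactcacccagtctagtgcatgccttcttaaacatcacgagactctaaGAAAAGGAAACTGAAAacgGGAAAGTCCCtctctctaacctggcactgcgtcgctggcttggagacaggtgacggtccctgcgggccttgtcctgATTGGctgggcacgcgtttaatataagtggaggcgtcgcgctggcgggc
In the CALR window, chr19:12938359-12938608 on the plus strand, capitals mark the 1 ER stress element, which lies on the reverse strand.
CALR promoter: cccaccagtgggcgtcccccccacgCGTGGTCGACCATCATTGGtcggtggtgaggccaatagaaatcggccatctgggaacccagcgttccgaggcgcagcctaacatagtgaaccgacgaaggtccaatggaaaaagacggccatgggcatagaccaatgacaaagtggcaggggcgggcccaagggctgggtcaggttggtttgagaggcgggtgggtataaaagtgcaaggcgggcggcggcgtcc

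Of 35116 such windows in the table, 3.02% held an interferon element, 1.40% a kappa B site, 32.0% a CCAAT box and 0.0740% an ER stress element. The CALR window held 4 CCAAT boxes, 1 of them inside its ER stress element, and no interferon element or kappa B site in these letters. CANX had 4 windows for its alternative starts, and 2 of them, which overlap, held the same ER stress element. HSPA5, the ER chaperone BiP and the best known gene of the ER stress response, held 1. The 3 matches are set side by side with the motif and its spacer in capitals, as they read on each gene's strand.
CALR, from -225 to -207 before the start, reverse strand: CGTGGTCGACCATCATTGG
CANX, from -151 to -133 before the nearest of its 2 starts, forward strand: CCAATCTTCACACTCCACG
HSPA5, from -66 to -48 before the start, forward strand: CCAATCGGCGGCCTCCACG
These are matches of letters, and binding was not measured. Whether the element bears on the level of any of these genes was not tested.

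B2M was the most counted of the 4 genes, and it was not called different between the groups. It lies at chr15:44711358-44718851 on the plus strand (ENSG00000166710.23). Its counts were 800, 837 and 804 in the high-total, middle-total and low-total siControl libraries. In siDelta2-4, in the same order, they were 992, 1018 and 889. In CPM, which scales counts to a common library size (here on totals corrected by TMM, the composition scaling of edgeR), B2M stood at 780.0, 803 and 770.1 in siControl and at 761, 827 and 832 in siDelta2-4. The groups overlapped, because the high-total siDelta2-4 library was below all 3 siControl libraries and the others were above them.

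The mean B2M level was 784 ± 16.7 CPM (SD, n = 3) in siControl and 807 ± 39.7 CPM (SD, n = 3) in siDelta2-4. The log2 fold change, siDelta2-4 against siControl, was 0.04 ± 0.08 (SE), with an adjusted p of 0.816 in edgeR's quasi-likelihood test. The 95% interval of the difference ran from 0.915-fold to 1.16-fold. In bulk RNA, fewer cells that express a gene and less RNA per cell cannot be told apart.

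CALR was counted about an order of magnitude less often than B2M and was also not called different. It lies at chr19:12938578-12944489 on the plus strand (ENSG00000179218.15). Its counts were 94, 83 and 108 in siControl and 155, 120 and 100 in siDelta2-4, in the order of falling totals. In CPM these were 91.6, 79.6 and 103 in siControl and 119, 97.5 and 93.6 in siDelta2-4. The high-total siDelta2-4 library stood above all others, and the remaining values of the groups overlapped.

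The CALR mean was 91.6 ± 11.9 CPM (SD, n = 3) in siControl and 103 ± 13.6 CPM (SD, n = 3) in siDelta2-4. The log2 fold change was 0.18 ± 0.14 (SE), with an edgeR adjusted p of 0.469 and a 95% interval from -0.11 to 0.47 on the log2 scale. It was 0.02 with the length trend removed and also with known models alone.

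PDIA3 and CANX were too sparse for the filter on low counts and were not tested in the main fit. PDIA3, at chr15:43746394-43773279 on the plus strand (ENSG00000167004.14), was counted 6, 9 and 7 times in siControl and 6, 8 and 5 times in siDelta2-4. The ratio of its summed CPM-scaled counts, siDelta2-4 to siControl, was 0.746, with an exact 95% interval from 0.382 to 1.44 that covers counting error only. CANX, at chr5:179678628-179731641 on the plus strand (ENSG00000127022.16), was counted 2, 2 and 0 times in siControl and 4, 1 and 3 times in siDelta2-4. Its ratio was 1.73, with an exact interval from 0.463 to 7.84. All models in the table had at least 1 count in siDelta2-4, with no such floor in siControl. These exact intervals do not cover that rule. Without the filter, edgeR gave a log2 fold change of -0.43 ± 0.46 (SE) for PDIA3, with an adjusted p of 0.717, and of 0.73 ± 0.91 (SE) for CANX, with an adjusted p of 0.731. Differences within these intervals were not detectable at this depth.

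**Figure D1:**
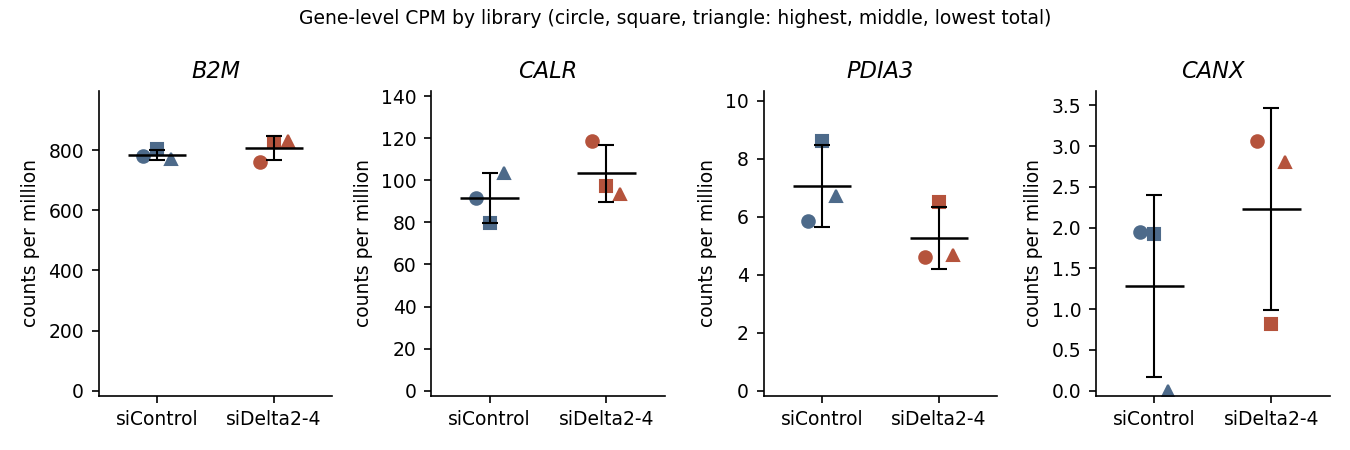
Gene-level CPM (y axis, 1 scale for each panel) of B2M, CALR, PDIA3 and CANX in the 3 siControl and 3 siDelta2-4 libraries. Points are libraries, horizontal lines are means and error bars are SDs. The groups overlap in all 4 panels, with B2M between 761 and 832 CPM and CANX between 0 and 3.07 CPM.

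Each long read counts once whatever its length, so levels were not divided by length. The mean level over all 6 libraries was 796 CPM for B2M, 97.5 for CALR, 6.16 for PDIA3 and 1.76 for CANX. Neighbours in that order did not overlap in any library. Along the same order the most counted model of each gene grew longer. Its length was 943 nt for B2M, 1901 nt for CALR, 3680 nt for PDIA3 and 4915 nt for CANX. Models of 3000 nt or longer held 3.27%, 3.25% and 3.39% of the counts in siControl, in the order of falling totals. In siDelta2-4 they held 3.48%, 3.64% and 3.60%, so the groups did not overlap. The mean model length did not overlap either, from 1011 to 1042 nt in siControl and from 1045 to 1063 nt in siDelta2-4. The fits with the length trend removed were run beside the main fit for this reason. How far length set the low counts of PDIA3 and CANX was not tested.

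Of the 2 genes of the set that passed the filter, 0 were called different at an adjusted p under 0.1, where 13% of the 3888 genes tested were called, 7% higher in siDelta2-4 and 5.97% lower. Neither had an unadjusted p under 0.05 in edgeR, which 23.1% of the genes tested had, and DESeq2 called 0 as well. The 4 analysed genes together took 0.0815%, 0.0864% and 0.0886% of the library counts in siControl and 0.0884%, 0.0969% and 0.0932% in siDelta2-4. The means were 0.0855 ± 0.0036% and 0.0928 ± 0.0043% (SD, n = 3 in each group), and the exact two-sided permutation test gave p = 0.2, where 0.1 is the smallest p that 3 libraries against 3 allow.

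Long reads assign each molecule to a transcript model by its splice junctions. Reads cut short at the 5′ end were not told apart from shorter forms, so the shares below are shares of assigned reads. B2M had 8 models, 6 of them annotated. B2M-211, the 4-exon form of 943 nt that encodes the full light chain, held 4855 of 5340 counts. Its 3 splice junctions are shown because they define the form that dominated. Each sequence gives 15 bases of the upstream exon in lower case and 15 bases of the downstream exon in capitals, from Gencode 44 on GRCh38.
B2M-211 exon 1 to exon 2: tggaggctatccagcGTACTCCAAAGATTC
B2M-211 exon 2 to exon 3: agatagttaagtgggATCGAGACATGTAAG
B2M-211 exon 3 to exon 4: agcagcatcatggagGTTTGAAGATGCCGC
The exon 1 to exon 2 junction joins base 44711613 to base 44715423 of chromosome 15. B2M-208, a 3-exon form annotated as subject to nonsense-mediated decay, starts at base 44715500 inside exon 2. It so lacks that junction but has the others, and it ends at base 44718145, as B2M-211 does.

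The B2M-211 share of all B2M counts was 91.8%, 91.8% and 90.5% in siControl and 90.7%, 89.6% and 91.5% in siDelta2-4. The means of 91.4 ± 0.7% and 90.6 ± 0.9% (SD, n = 3) differed by less than the SD of siDelta2-4, with p = 0.3 in the exact permutation test. The remaining B2M counts were spread over minor forms. TALONT000533129, an unannotated 3-exon model of 942 nt built from annotated splice sites, held 219 counts. It was counted 25, 28 and 36 times in siControl and 46, 53 and 31 times in siDelta2-4, and its log2 fold change of 0.36 ± 0.22 (SE) had an edgeR adjusted p of 0.425.

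B2M-208 held 138 counts, TALONT000533123, a 3-exon model of 977 nt with an unannotated splice site, held 72, and B2M-210, a single-exon form of 2329 nt annotated as a retained intron, held 45. B2M-210 made up 0.86 ± 0.12% of the gene's counts in siControl and 0.84 ± 0.32% in siDelta2-4 (SD, n = 3). The last 3 annotated models, B2M-202, B2M-204 and B2M-205, held 5, 4 and 2 counts. No model of B2M was called different, nor was their usage, for which the gene test of diffSpliceDGE over 4 models gave an adjusted p of 0.915.

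CALR had 7 models, 5 of them annotated, and was less uniform than B2M. CALR-201, the 9-exon coding form of 1901 nt, held 486 of 660 counts. Its share was 81.9%, 71.1% and 78.7% in siControl and 71.6%, 74.2% and 65.0% in siDelta2-4, so the groups overlapped. The means were 77.2 ± 5.6% and 70.3 ± 4.7% (SD, n = 3), with p = 0.3 in the exact permutation test.

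Counts outside CALR-201 lay mostly on 2 unannotated models. TALONT000334438, with 9 exons and 1484 nt, was counted 6, 7 and 12 times in siControl and 15, 17 and 20 times in siDelta2-4. Its share of CALR counts was 6.38%, 8.43% and 11.1% in siControl and 9.68%, 14.2% and 20% in siDelta2-4, so the groups overlapped. Its log2 fold change was 0.87 ± 0.36 (SE), with an edgeR adjusted p of 0.186. Without the low-total siControl library, the adjusted p was 0.0523. TALONT000335657, a single-exon model of 777 nt, is as long as the last exon of CALR-201. TALON classed it as an incomplete match to a known form. It was counted 10, 13 and 9 times in siControl and 25, 11 and 12 times in siDelta2-4. It was not called, with an adjusted p of 0.610 by edgeR.

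Of all 6768 models tested, 6.91% were called, and of the 7 tested models of B2M and CALR, 0 were. Usage differed in 0.618% of 1132 genes tested, and for CALR the gene test over 3 models gave an adjusted p of 0.686. PDIA3 had 2 models, with 35 of its 41 counts on the 13-exon coding form PDIA3-201. CANX had 3 models, with 9 of its 12 counts on CANX-201, which has 15 exons.

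**Figure D2:**
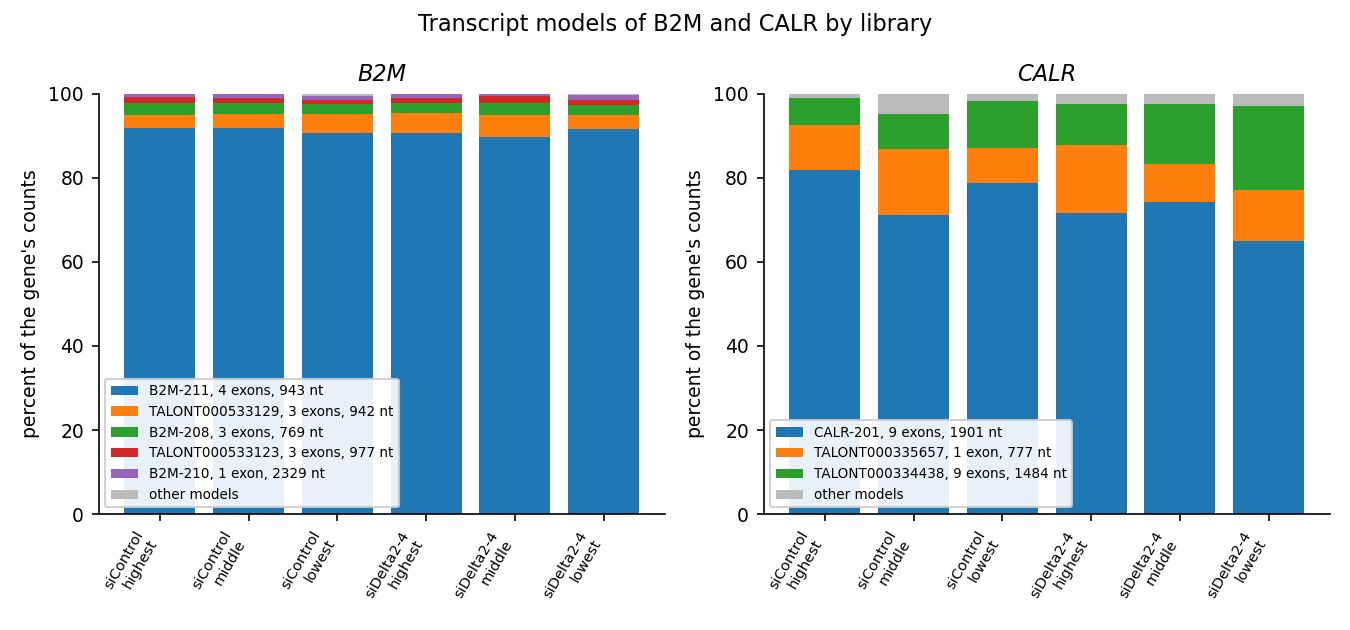
Share of each gene's counts (y axis, percent) held by the models with at least 20 counts, in each of the 6 libraries (x axis, group and rank of the total). B2M-211 holds between 89.6% and 91.8% of B2M in every library, and CALR-201 between 65.0% and 81.9% of CALR.

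The counts of CALR could not be taken as the whole output of its locus. An annotated long non-coding RNA gene, ENSG00000267458, lies on the opposite strand over the 3′ end of CALR, at chr19:12944118-12944487. Nearly as many counts were assigned to it as to CALR, 613 in all against 660, and all lay on unannotated models. These models had the shape of those of CALR: TALONT000334433 had 9 exons and 1901 nt, as CALR-201 has, and held 358 counts. That is longer than the annotated span of the gene. Whether these counts came from RNA of that gene was not tested. The second model of ENSG00000267458, TALONT000335660, had 1 exon and 777 nt, as TALONT000335657 of CALR has, and held 147. The last exon of CALR-201, chr19:12943713-12944489, is also 777 nt long.

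The counts assigned to ENSG00000267458 stood at 86.8, 70.0 and 78.5 CPM in siControl and at 101, 102 and 106 CPM in siDelta2-4. All siDelta2-4 libraries were above all siControl libraries, and in 26% of all genes tested the groups did not overlap in one direction or the other. The log2 fold change of these counts was 0.39 ± 0.14 (SE), with an edgeR adjusted p of 0.0796, so they were called higher in siDelta2-4. The call was kept under 3 alternatives and lost under 12, with an adjusted p of 0.213 by DESeq2 and of 0.346 with the trend on transcript length removed. The unannotated models of the table all had at least 5 counts in each siDelta2-4 library, with no such floor in siControl, and this holds for the models of ENSG00000267458 and for TALONT000334438 of CALR. With the same floor set in both groups, the adjusted p of ENSG00000267458 was 0.107 by edgeR.

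The share of both strands' counts that were assigned to CALR was 51.4%, 53.2% and 56.8% in siControl and 54.2%, 49.0% and 46.9% in siDelta2-4. The groups overlapped, with means of 53.8 ± 2.8% and 50.04 ± 3.7% (SD, n = 3) and p = 0.3 in the exact permutation test. Summing both strands, an alternative chosen after seeing the data, gave 170 ± 17.8 CPM in siControl and 206 ± 11.7 CPM in siDelta2-4 (SD, n = 3). The groups of the sum did not overlap, beside 26% of all genes tested in which they did not. Its log2 fold change was 0.28 ± 0.11 (SE), with a 95% interval from 0.05 to 0.51 and an edgeR adjusted p of 0.128.

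Whether the counting used strand was not given in the sources used here, so reads of CALR and of ENSG00000267458 cannot be told apart. In the whole table TALON had classed 1746 further genes as antisense, and they held 22.0% of the counts, between 21.5% and 22.4% in each library. Their coordinates were not used here, so such genes opposite B2M, CANX and PDIA3 were not looked for. Among annotated genes, none overlapping B2M or CANX was counted, and CATSPER2P1, opposite the start of PDIA3, had 4 counts. PDIA3P1, a processed copy of PDIA3 elsewhere in the genome, had 5 counts, and reads could have been split between the copies.

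**Figure D3:**
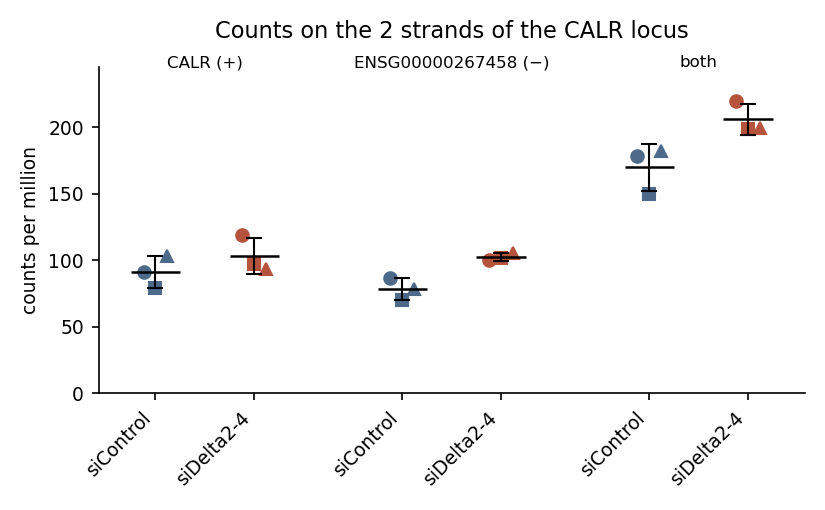
CPM (y axis) assigned to CALR, to the opposite-strand gene ENSG00000267458 and to both summed, in siControl and siDelta2-4. Points are libraries, horizontal lines are means and error bars are SDs. CALR overlaps between the groups, and the opposite-strand gene and the sum do not, with 170 against 206 CPM for the sum.

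Other parts of the class I route were read from gene lists. Of 14 further heavy chains and relatives, counts for FCGRT and HFE were analysed. FCGRT, the neonatal Fc receptor, had 7 counts and HFE, the iron regulator, had 1. Both were at 0 in all siControl libraries, and models in the table all had at least 1 count in siDelta2-4, so this direction is fixed by how the table was made.

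Of 12 genes that supply peptides or load them, 8 had counts and 5 were tested. In this list 1 was called, and it was higher, where 13% of all genes tested were called and 7% were called higher. BCAP31, an ER membrane protein that escorts class I molecules out of the ER, stood at 152, 138 and 156 CPM in siControl and at 185, 189 and 177 CPM in siDelta2-4. The siDelta2-4 libraries were all above the siControl libraries, and in 26% of all genes tested the groups did not overlap. The log2 fold change was 0.31 ± 0.11 (SE), with an edgeR adjusted p of 0.0881, and the call was kept under 4 alternatives and lost under 12. PSME2, a subunit of the proteasome activator induced by interferon, had 765 counts and a log2 fold change of 0.11 ± 0.12 (SE), with an adjusted p of 0.655. The median log2 fold change of the 5 was 0.14, beside 0.03 over all genes tested.

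The catalytic subunits of the proteasome exist as constitutive and interferon-induced forms that replace each other, and these pairs were picked out after their values were seen. PSMB8 had 3 counts against 2682 of PSMB5, which is 0.112% of the pair, with an exact 95% interval from 0.0230% to 0.326%. PSMB9 had 6 counts against 2061 of PSMB6, or 0.290% with an interval from 0.107% to 0.631%. PSMB8 was counted 0, 0 and 0 times in siControl and 1, 1 and 1 times in siDelta2-4. Models in the table all had at least 1 count in siDelta2-4, and the intervals of PSMB8 and PSMB9 do not cover that rule. Their partners PSMB5 and PSMB6 had log2 fold changes of 0.22 ± 0.10 and 0.16 ± 0.10 (SE), with edgeR adjusted p of 0.177 and 0.326. Without the low-total siControl library the log2 fold change of PSMB5 was 0.30 ± 0.09 (SE) and it was called, with an edgeR adjusted p of 0.0175, and scaled to library totals alone it was called with 0.0803. PSMB10 was the exception among the induced forms, with 366 counts against 1136 of PSMB7, or 24.4% of the pair with an interval from 22.2% to 26.6%.

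PSMB10 stood at 66.3, 60.4 and 54.6 CPM in siControl and at 47.6, 42.3 and 59.9 CPM in siDelta2-4. Its groups overlapped, and its log2 fold change of -0.28 ± 0.18 (SE) had an edgeR adjusted p of 0.345. By counts, PSMB10 made up 25.7 ± 1.1% of its pair in siControl and 23.2 ± 3.5% in siDelta2-4 (SD, n = 3). The intervals on these pairs cover counting error only, as PCR copies are not independent molecules.

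General ER folding factors, which work beside CALR, CANX and PDIA3, were read as a further list. Of its 16 genes, 15 had counts and 8 were tested, and 1 was called, in the higher direction. That is near the 13% called over all genes tested, of which 7% were called higher and 5.97% lower. HSPA5 was counted 14, 10 and 20 times in siControl and 38, 44 and 31 times in siDelta2-4. In CPM it stood at 13.6, 9.6 and 19.2 in siControl and at 29.2, 35.8 and 29.0 in siDelta2-4. Each siDelta2-4 library was above all siControl libraries, beside 26% of all genes tested in which the groups did not overlap. Its log2 fold change was 1.14 ± 0.27 (SE), with an edgeR adjusted p of 0.0080, and it was called under all 15 alternatives that could be computed for it. DESeq2, the method of the study, was not among these. It gave a log2 fold change of 1.12 ± 0.37 (SE) but no adjusted p for HSPA5.

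ERP29, an ER lumenal chaperone, stood at 109 ± 3.3 CPM in siControl and 136 ± 19.3 CPM in siDelta2-4 (SD, n = 3). Its log2 fold change of 0.33 ± 0.13 (SE) did not pass the threshold, with an edgeR adjusted p of 0.101. PDIA6, a disulfide isomerase of the same family as PDIA3, had a log2 fold change of 0.31 ± 0.18 (SE) and an adjusted p of 0.315. It overlaps ATP6V1C2 on the opposite strand, which had 265 counts against its 360. All 8 tested genes had log2 fold changes above 0, with a median of 0.38. With the length trend removed the median was 0.21 and PDIA4, another disulfide isomerase, was below 0, at -0.08. Over all genes tested, 2094 of 3888 had a log2 fold change above 0, and the median was 0.03. The list was chosen with earlier results of these data known. HSP90B1, with 5, 5 and 23 counts in siControl, passed the filter through its siDelta2-4 counts. The signs are therefore a description and no test. Outside this list CALR was at 0.18, and without the filter PDIA3 was at -0.43 and CANX at 0.73.

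HSP90B1, the ER paralogue of HSP90, is named after its values were seen, as are PDIA4 and ERP44. HSP90B1 stood at 4.9, 4.8 and 22.0 CPM in siControl and at 19.2, 20.3 and 21.5 CPM in siDelta2-4. The low-total siControl library was at the level of the siDelta2-4 libraries, and the adjusted p by edgeR was 0.133. In HSPA5 the same library was also the highest of its group. Without that library, 4 of the 8 genes of the list were called, HSPA5, HSP90B1, ERP29 and ERP44, where 25.4% of the 4098 genes tested in that fit were called.

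**Figure D4:**
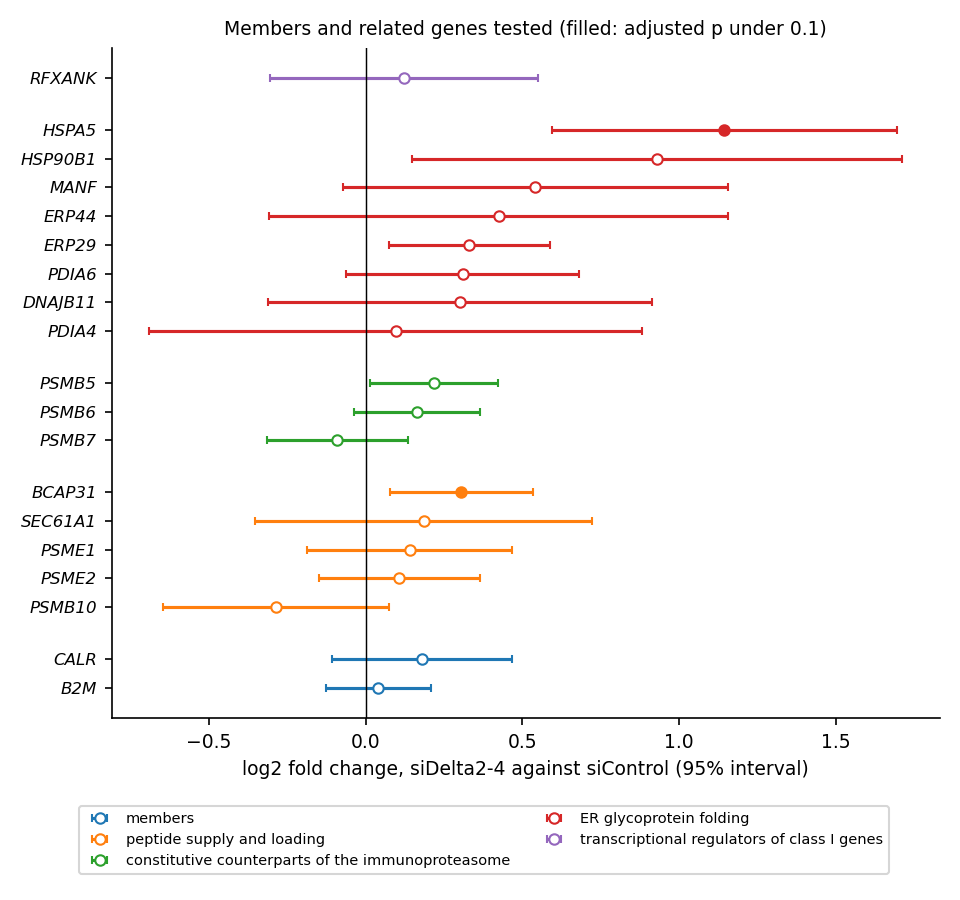
Log2 fold changes (x axis, siDelta2-4 against siControl) of B2M, CALR and the tested genes of the related lists (y axis), with 95% intervals from edgeR. Filled points have an adjusted p under 0.1. HSPA5, at 1.14, and BCAP31, at 0.31, are filled, and B2M lies at 0.04 with the interval from -0.13 to 0.21.

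Regulators of class I genes were mostly near the floor of the assay. Of 20 genes listed, 14 had counts, 373 in all, and 1 was tested. RFXANK, a subunit of the RFX complex that binds class I and II promoters, held 255 of these counts and had a log2 fold change of 0.12 ± 0.21 (SE), with an edgeR adjusted p of 0.777. It overlaps BORCS8 on the opposite strand, which had 58 counts. NFYB, a subunit of the factor that binds CCAAT boxes, had 35 counts. For the MHC class II route, CD74, the invariant chain, had 2 counts, and the other genes of that list of 13 were not analysed here.

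The genes whose log2 CPM followed each member most closely over the 6 libraries were sought among 1651 genes with a mean of at least 50 CPM. For B2M these were TALONG000082000 and TALONG000068252, with Pearson r of 0.964 and 0.963, and for CALR TALONG000065255 and CLNS1A, with 0.974 and 0.973. For CANX they were TALONG000073691 and HYPK, with 0.972 and 0.952, and for PDIA3 TALONG000087586 and BUD31, with 0.972 and 0.928. The libraries share the group difference and the depth, and each r is the highest of many over 6 points, so these values are descriptions. CANX had 12 counts in all and PDIA3 had 41, so their profiles are near the floor and largely counting error. Between members, r was -0.524 for B2M and CALR.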

How the data were processed

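The genes and the related lists were chosen with earlier results of these data known. The authors deposited raw, unnormalised counts of nanopore reads for each transcript model. Alignment by the authors was to GRCh38.p14 (minimap2 2.14, SAMtools 1.13), followed by TranscriptClean for correction and TALON for annotation on Gencode 44. Unannotated models were filtered by the authors and had at least 5 counts in each siDelta2-4 library, and all models had at least 1 count in siDelta2-4. Groups came from the labels, and the 6 columns were matched to groups by the siRNA in their names.

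Counts were summed per gene. Genes and models were tested in edgeR 4.0.16 (R 4.3.3) with filterByExpr, TMM scaling, a quasi-likelihood fit of the groups and two-sided tests, and called at a Benjamini-Hochberg adjusted p under 0.1 over all features tested. Model usage was tested with diffSpliceDGE, and shares with exact permutation tests. Standard errors are the size of the log2 fold change over the square root of F. Intervals of pairs are exact binomial (Clopper-Pearson), and those of sparse genes are exact for the ratio of counts. The scripts were tested on simulated data. The alternatives included DESeq2 1.42.0, and 1 was added after seeing the data (both strands of CALR summed).

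Named from the lists were each called gene and the 2 most counted of each list, genes overlapping a member on either strand, and for each member the 2 genes most like it. Gencode 44 gave gene and exon positions, and RefSeq gave promoters.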

Additional observations from a re-analysis of the deposited data

How the results depend on the processing

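The call of neither B2M nor CALR changed under any alternative run. Leaving out 1 library at a time, the log2 fold change ranged from 0.0044 to 0.08 for B2M and from 0.06 to 0.26 for CALR, and the number of members called stayed at 0. With known models alone the log2 fold change of B2M turned sign, to -0.0026, and that of CALR was 0.02, as it was with the length trend removed. The number of genes called, 504, was 254 by DESeq2, 252 with known models alone, 304 at an adjusted p under 0.05 and 299 with the column number as a replicate block, and ranged from 194 to 1041 when 1 library was left out (194 without the middle-total siDelta2-4 library, 1041 without the low-total siControl library). Scaled to library totals alone, 361 genes were called higher and 152 lower, in place of 272 and 232, the median log2 fold change of all genes being 0.09. With the length trend removed the split was 194 to 283, and by DESeq2 93 to 161. The labels do not pair the columns: same-numbered libraries had correlations of deviations of 0.039, -0.136 and -0.0843, and the block changed no call of B2M, CALR or their models. 

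With 1 library left out, the models ranged in log2 fold change from 0.03 to 0.09 (B2M-211), from -0.072 to 0.15 (B2M-208), from -0.17 to 0.22 (TALONT000533123), from 0.20 to 0.51 (TALONT000533129), from -0.081 to 0.18 (CALR-201), from -0.017 to 0.61 (TALONT000335657) and from 0.67 to 1.21 (TALONT000334438). Signs turned for B2M-208 (-0.011 and -0.072) and TALONT000533123 (-0.079 and -0.17) without the low-total siControl library and without the middle-total siDelta2-4 library. They also turned for CALR-201 without the middle-total siControl library (-0.081) or the high-total siDelta2-4 library (-0.07), and for TALONT000335657 without the latter (-0.017). TALONT000334438 passed the threshold without the low-total siControl library. The share of CALR counts on CALR-201 differed between siDelta2-4 and siControl by -10.05 to -4.34 points over these fits, and differed by -0.41 points among known models alone, since the unannotated models are then left out. Other causes were not tested. Depth limits CANX and PDIA3, which passed no filter.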

Other observations

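At VIM, picked out after its values were seen, the annotated opposite-strand gene VIM-AS1 held 994 counts against 987 of VIM, a split as even as that at the CALR locus. The keratin genes KRT8 and KRT18 also overlap on opposite strands. No annotated gene overlapping HSPA5, BCAP31, ERP29, PSME2, PSMB5, PSMB6 or PSMB10 was counted. Genes that TALON classed as antisense were not looked for at these genes, so a split between strands was not tested there.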
